A study of Schizosaccharomyces pombe with 8 samples.

Results

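The large subunit of the cytoplasmic ribosome of fission yeast, Schizosaccharomyces pombe, is built from ribosomal RNA and a set of proteins encoded by the rpl genes. The genes described here were chosen as a list of gene identifiers that name large subunit ribosomal protein genes, and 60 of the 5129 genes listed in each of 2 tables matched it. Of these, 59 carry an rpl symbol in the reference annotation. The remaining gene, rlp7 (SPAC664.06), encodes an assembly factor that resembles ribosomal protein L7 and does not belong to the mature ribosome. A further 17 rpl genes are listed in the tables and are not members. The genes lie on chromosomes I (25 genes), II (20 genes) and III (15 genes), and 26 of them have an annotated intron.

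The ribosome joins amino acids at the peptidyl transferase centre of the large subunit, and the new chain leaves through an exit tunnel lined and rimmed by several rpl proteins. The mobile stalks help to move tRNA and to recruit translation factors, and other proteins form the bridges to the small subunit. Ribosomal protein genes are among the most strongly expressed genes of a growing yeast cell, and many exist as paralog copies that encode nearly the same protein. In fission yeast many of their promoters hold a short element called the HomolD box, which takes the place of a TATA box, and some hold a further element called HomolE.

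Poly(A)-selected RNA was sequenced in directional libraries, 2 for each of 4 groups. Libraries labelled seb1-1 were compared with libraries labelled WT, and libraries labelled epe1KO_tfs1DN with libraries labelled epe1KO. Seb1 binds nascent RNA and acts with RNA polymerase II in pausing and 3′ end formation, and seb1-1 is a viable mutant allele. Epe1 opposes heterochromatin, and per the labels its gene is knocked out in both groups of the second pair. The name tfs1DN stands for a dominant-negative form of TFIIS, the factor that rescues backtracked polymerase. It was placed under the thiamine-repressible nmt1 promoter beside the intact tfs1 gene, and the study describes empty-vector epe1 controls. The study kept its epe1 tfs1DN strains viable with thiamine and describes the repression as leaky. It reports RNA-seq of this genotype on a single isolate, so genotype and isolate cannot be told apart. The study used the alleles to lessen (seb1-1) or prolong (tfs1DN) pausing of the polymerase, and the comparisons ask which transcripts differ in level.

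The values are the authors' own: a mean normalized count over the 4 libraries of a pair, and the DESeq2 log2 fold change, standard error (SE), p and adjusted p. No value per library was used here, so the depth per library is unknown and a mean carries no spread. A positive fold change stands for a higher level in seb1-1 or in the libraries labelled epe1KO_tfs1DN. In the second comparison this direction rests on a sheet name in the study's supplement, because the deposited table is named with epe1KO first, and read the other way every sign of that comparison would turn round. A gene rose or fell where the deposited adjusted p was below 0.01. Nothing in the labels ties the 2 libraries of a group to separate cultures, so the p-values measure only how far these libraries differ, which may be technical. The genes that the labels name were read first. The epe1 gene is listed with a mean count of 706 in the pair labelled epe1KO_tfs1DN and epe1KO, against 712 in the pair labelled seb1-1 and WT, which is not the level of a gene removed as a whole. The tfs1 gene had a log2 fold change of 0.22 (adjusted p = 0.328, DESeq2) in the libraries labelled epe1KO_tfs1DN, with reads of the intact and the mutant copy not told apart. The seb1 gene had a log2 fold change of -0.19 (adjusted p = 0.981, DESeq2) in seb1-1.

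Promoter sequences were read for all members, and those printed were picked by the expression results. The stretches printed here reach from 80 to 21 bases before the annotated transcript start of the 8 genes that fell in the libraries labelled epe1KO_tfs1DN, and of rpl2802, the paralog of rpl2801 that did not pass the test. They are read 5′ to 3′ on the strand of the gene, from the RefSeq sequence of assembly ASM294v3, with the HomolD box CAGTCACA or its core CAGTCAC in capitals on either strand.
rpl29 (chromosome II, plus strand): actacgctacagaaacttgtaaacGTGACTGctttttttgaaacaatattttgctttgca
rpl3602 (chromosome II, plus strand): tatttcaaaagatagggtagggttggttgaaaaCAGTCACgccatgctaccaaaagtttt
rpl3601 (chromosome III, minus strand): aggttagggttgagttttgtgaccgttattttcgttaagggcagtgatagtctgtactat
rpl3002 (chromosome I, minus strand): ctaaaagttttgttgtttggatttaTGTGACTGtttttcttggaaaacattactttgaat
rpl3001 (chromosome I, minus strand): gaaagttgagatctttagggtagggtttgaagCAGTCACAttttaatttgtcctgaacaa
rpl2801 (chromosome II, plus strand): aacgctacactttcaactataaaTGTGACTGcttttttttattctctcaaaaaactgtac
rpl2802 (chromosome III, plus strand): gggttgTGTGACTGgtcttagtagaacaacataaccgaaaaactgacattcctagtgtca
rpl3201 (chromosome II, plus strand): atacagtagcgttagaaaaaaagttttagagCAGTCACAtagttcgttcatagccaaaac
rpl39 (chromosome III, plus strand): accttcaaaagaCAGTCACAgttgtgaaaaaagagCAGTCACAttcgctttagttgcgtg
The rpl39 stretch holds the box at 2 places, and the rpl3601 stretch holds neither the box nor its core.

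In windows from 250 bases before to 50 bases after the annotated start, the HomolD box was found on either strand in 40 of the 60 genes (66.7%), against 137 of the windows of all 5111 annotated genes (2.68%). Its core, which every box contains, was found in 55 genes (91.7%), against 4.72% of all windows. The small subunit genes were alike, with the core in 50 of 55. The core was absent from the windows of rpl1601, rpl2402, rpl2501, rpl31 and rpl3601. The HomolE box ACCCTACC, searched on both strands, was found in 17 genes (28.3%), against 1.62% of all windows, and 16 of the 17 also held the HomolD core. Of the 60 core matches, 55 began between 80 and 40 bases before the start, with a median position of -53.5, and 39 lay on the strand of the gene. A match of letters is a description of the sequence and not a bound site.

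**Figure D1:**
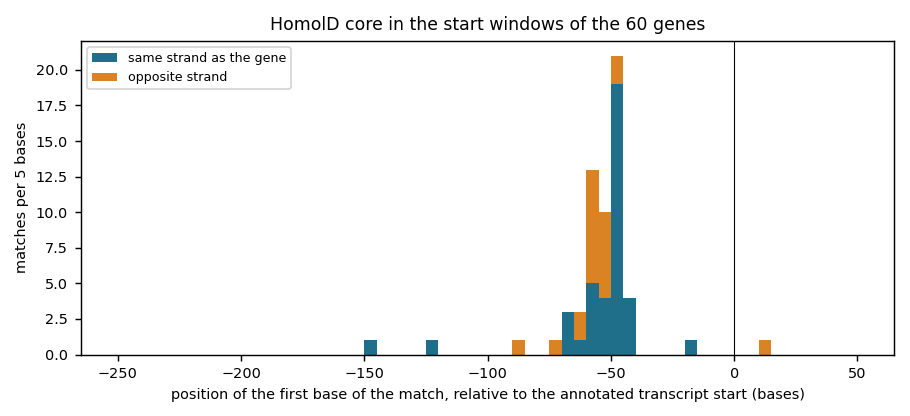
Position of each match to the HomolD core relative to the annotated transcript start (x axis, bases) and the number of matches in bins of 5 bases (y axis), coloured by strand. The matches pile up at about the median position of -53.5, with 39 on the strand of the gene and 21 on the opposite strand.

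The 60 genes were among the most abundant transcripts in both pairs. They made up 1.17% of the listed genes and 11.1% of the summed mean counts in the pair of seb1-1 and WT. In the pair labelled epe1KO_tfs1DN and epe1KO they made up 10.2%. Per kilobase of annotated transcript, the median member had a mean of 54266 normalized counts in the first pair, against 481 for all listed genes, and 41400 in the second, against 525. In each pair 54 of the 60 lay above the 95th percentile of all genes per kilobase. Within each pair the levels still spanned a wide range.

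In the pair of seb1-1 and WT the highest levels per kilobase belonged to rpl13 (201946), rpl801 (175978), rpl35 (142013), rpl15 (133968) and rpl6 (128285). Rpl801 is a uL2 protein of the peptidyl transferase region, and rpl35 encodes a protein of the exit tunnel rim. The lowest were rpl302 (5096), rpl1202 (3886), rpl1201 (3223), rlp7 (2002) and rpl3002 (1785). In the pair labelled epe1KO_tfs1DN and epe1KO the order was led by rpl31 (97777), rpl35 (94322), rpl13 (83229), rpl26 (82755) and rpl42 (82328), of which rpl31, rpl35 and rpl26 encode proteins around the tunnel exit. The same 6 genes were at the bottom of both orders, namely rpl102, rpl1202, rpl1201, rpl302, rlp7 and rpl3002. The log2 levels per kilobase of the 2 pairs had a Pearson r of 0.94 and a Spearman rho of 0.88 over the 60 genes, which share transcript lengths and base composition. The neighbouring ranks cannot be tested, since no spread comes with a mean. Reads of near-identical copies can be split in counting, and rpl1201, rpl1202, rpl301 and rpl302 each share more than 50% of their 50-base stretches with another gene, so their levels are uncertain.

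**Figure D2:**
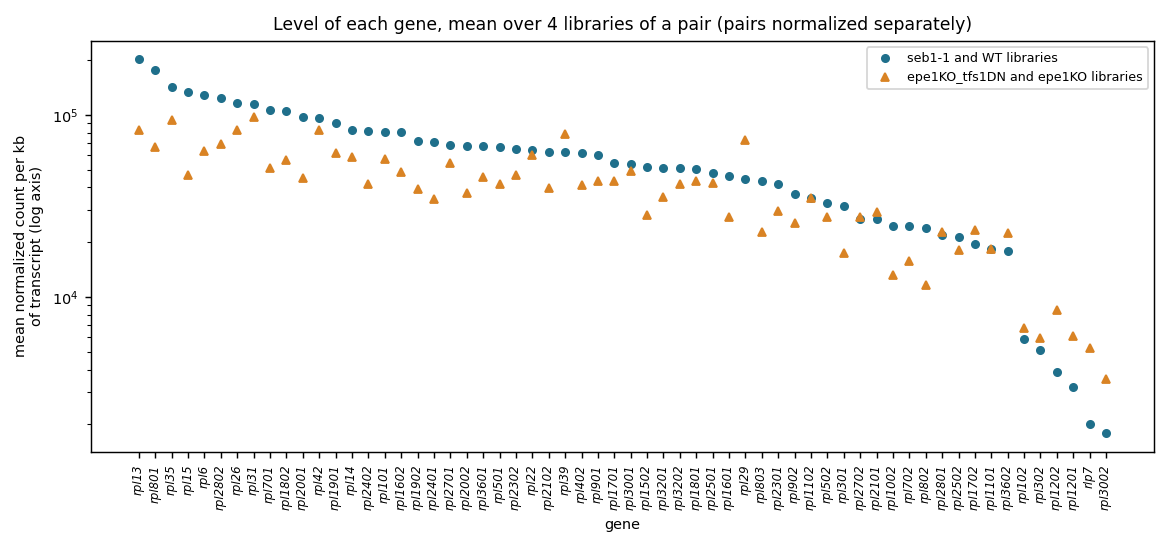
Mean normalized count per kilobase of transcript (log axis) of each of the 60 genes, as the authors' mean over the 4 libraries of a pair, ordered by the level in the pair of seb1-1 and WT. The levels run from 1785 (rpl3002) to 201946 (rpl13) in that pair, and the 6 genes at the right are the lowest in both pairs.

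Among the 60 members, 47 belong to 23 families with more than 1 member copy, 22 of them with 2 and the rpl8 family with 3. Outside the 60, the tables also list rpl401, rpl1001 and rpl1603, further copies for rpl402, rpl1002 and the rpl16 genes, which do not enter the shares and ratios. The coding sequences of copies were 66.1% to 99.6% identical, with a median of 88.1%. In all 22 families of 2 copies the copy with the higher mean count was the same in both pairs of groups. This holds for counts as deposited. Per kilobase of transcript, rpl3201 held 50.03% of the rpl32 family in the pair of seb1-1 and WT. It held 46.0% in the pair labelled epe1KO_tfs1DN and epe1KO, where rpl3202 led. The share of a copy differed between the pairs by a median of 5.01 percentage points and by at most 13.1. The pairs differ in genotype and in libraries, and their parts in these shifts cannot be told apart.

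The most unequal copies encode eL30, which forms a bridge to the small subunit. The rpl3001 gene (SPAC9G1.03c) had a mean count of 29524 in the pair of seb1-1 and WT and rpl3002 (SPAC1250.05) had 1002, a ratio of 29.5. In the pair labelled epe1KO_tfs1DN and epe1KO the means were 26988 and 1983, a ratio of 13.6. Next were the copies for uL1, the protein of the L1 stalk near the exit site of tRNA, where rpl101 exceeded rpl102 by a factor of 13.8 in the first pair and 8.53 in the second. In the rpl8 family, rpl801 held 70.4% of the family's summed mean count in the first pair, and rpl803 and rpl802 held 19.2% and 10.4%. For uL15, rpl2802 held 84.6% in the first pair and 74.8% in the second. For uL3, next to the peptidyl transferase centre, rpl301 held 84.0% and 71.1%, values that rest on counts of copies with shared stretches. The most even families were rpl32 in the first pair, with a ratio of 1.24, and rpl18 in the second, with a ratio of 1.09.

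**Figure D3:**
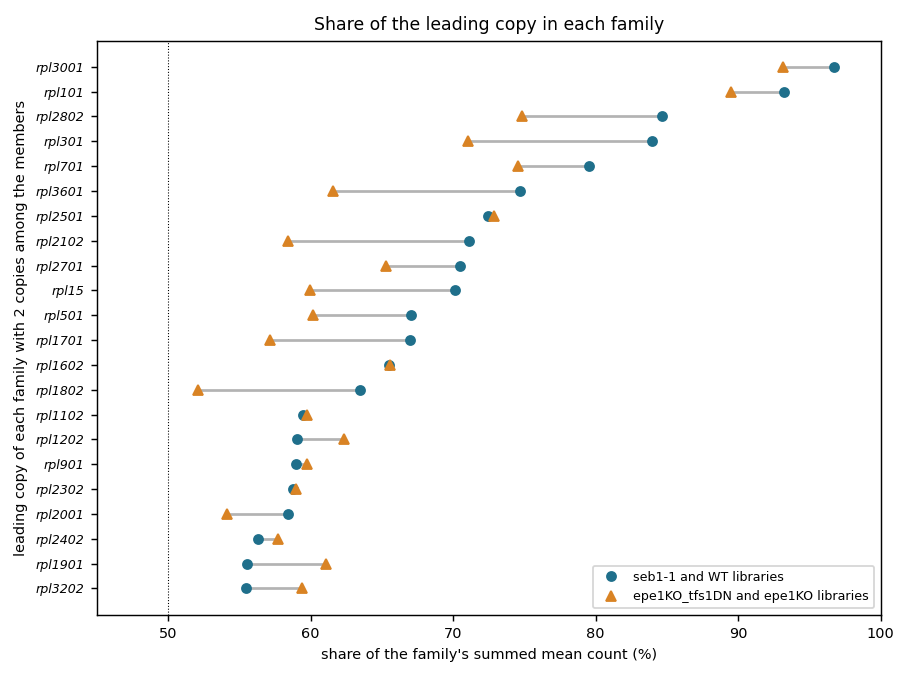
Share of the leading copy (x axis, percent of the family's summed mean count) in the 22 families with 2 copies among the members, in the pair of seb1-1 and WT (circles) and the pair labelled epe1KO_tfs1DN and epe1KO (triangles). The leading copy stays above 50% in both pairs in every family, from 96.7% and 93.2% for rpl3001 at the top.

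In seb1-1 no large subunit gene rose or fell, although 59 of the 60 fold changes were above 0. Among all genes with a fold change, 46.1% were above 0. The median log2 fold change of the members was 0.28, against -0.03 for all genes. Other short genes were also above 0, with medians of 0.11 under 500 bases and 0.13 from 500 to under 700, against 0.44 and 0.28 for the members of these lengths. The genes outside the 60 still include the 55 small subunit genes (median 0.29) and the 17 other rpl genes (median 0.30). Their part in the medians of other short genes was not separated. At 700 bases and over the medians were 0.26 for members and -0.05 for other genes. The members' values ranged from -0.33 for rpl1002 to 0.94 for rpl102. Of all genes tested, 0.181% rose and 0.302% fell, so 0 of 60 is close to the background. At an unadjusted p below 0.05, 3 members were higher and 0 lower, against 4.58% and 4.71% of all genes. The SE of a member was 0.29 to 0.32, and the 95% interval lay within a 2-fold change in both directions for 44 of the 60. A difference of the size of the median was not detectable for a single gene at this precision.

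The 3 highest values in seb1-1 belonged to genes of different roles. For rpl102 (SPBC30D10.18c), the minor copy for uL1, the log2 fold change was 0.94 ± 0.32 (SE; DESeq2 adjusted p = 0.124, the lowest of the 60). The assembly factor gene rlp7 had 0.87 ± 0.31 (SE; DESeq2 adjusted p = 0.158) and rpl802 (SPBC2F12.07c), the least abundant uL2 copy, had 0.66 ± 0.31 (SE; DESeq2 adjusted p = 0.444). Then came rpl29 and rpl31 (0.58 each) and rpl3002 (0.56). At the other end stood rpl1002 (SPAP7G5.05), which encodes uL16, a protein that joins the subunit late and contacts tRNA. Its log2 fold change was -0.33 ± 0.30 (SE; DESeq2 adjusted p = 0.896), and 41.3% of its 50-base stretches are shared with another gene. The next lowest were rpl1702 (0.00), rpl1201 (0.05), rpl2102 (0.10), rpl1101 (0.11) and rpl101 (0.12).

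By role, the median log2 fold change in seb1-1 was 0.42 for the 6 bridge genes, 0.35 for the 12 genes of the exit tunnel and its rim, 0.30 for the 7 genes of the peptidyl transferase and tRNA sites, 0.26 for the 4 genes of the 5S ribonucleoprotein, 0.24 for the 4 stalk genes and 0.27 for the 26 others. Differences between these roles were not tested.

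In the libraries labelled epe1KO_tfs1DN, 8 of the 60 genes fell relative to the libraries labelled epe1KO and 0 rose. Over all genes tested, 2.21% fell and 2.37% rose. The median log2 fold change of the members was -0.23, against -0.00 for all genes, and 51 of the 60 were below 0, against 50.1% of all genes. At an unadjusted p below 0.05, 29 members were lower and 0 higher, against 10.3% of all genes in the lower direction and 10.3% in the higher. The range ran from -0.92 (rpl29) to 0.22 (rpl301), so no member had an estimated change of more than 2-fold. The 95% interval lay within a 2-fold change in both directions for 57 of the 60, and reached past it for rpl29, rpl3002 and rpl3602. Over all genes the Wald scores of this comparison had a scaled median absolute deviation of 1.48, where a standard normal has 1. With the scores divided by it, rpl29 still passed (adjusted p = 0.000125) and the other 7 did not, from 0.0170 for rpl3602 to 0.236 for rpl39. Among all genes, 45 passed in either direction after this division.

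The largest fall was that of rpl29 (SPBC776.01), which encodes eL29, a small protein found only in eukaryotic ribosomes. Its mean count was 24000 over the 4 libraries, with a log2 fold change of -0.92 ± 0.12 (SE; DESeq2 adjusted p = 3e-11), a level 0.529 times that of the libraries labelled epe1KO. Both copies for eL36 fell, the minor copy rpl3602 (SPBC405.07) by 0.78 ± 0.14 and the major copy rpl3601 (SPCC970.05) by 0.49 ± 0.12 on the log2 scale (SE; DESeq2 adjusted p = 3.3e-06 and 0.0016). Both copies for the bridge protein eL30 also fell, rpl3002 by 0.74 ± 0.16 and rpl3001 by 0.59 ± 0.12 (SE; DESeq2 adjusted p = 0.00023 and 8.5e-05). Of the uL15 copies, rpl2801 (SPBC776.11) fell by 0.71 ± 0.13 (SE; DESeq2 adjusted p = 1.3e-05), while rpl2802 (SPCC5E4.07) had -0.18 ± 0.12. The rpl3201 gene (SPBC16C6.11), for eL32, fell by 0.54 ± 0.13. The rpl39 gene (SPCC663.04), for the small eL39 protein within the exit tunnel, fell by 0.53 ± 0.14. Their adjusted p-values (DESeq2) were 0.0012 and 0.0028. Of these 8 genes, 5 overlap an annotated gene on the opposite strand, as 46 of all 60 do, and the sources used here do not give the strand setting of the counting.

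The highest values in the libraries labelled epe1KO_tfs1DN were 0.22 ± 0.15 for rpl301, 0.20 ± 0.14 for rpl13 and 0.14 ± 0.12 for rpl701 (SE). Then came rpl1802 and rpl1202 (0.09 each) and rpl502 (0.06), and none of the 6 passed the test. Lying just short of the threshold were rpl3202 (-0.42, DESeq2 adjusted p = 0.011), the other eL32 copy, and rpl901 (-0.39, adjusted p = 0.013).

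By role, all 6 bridge genes were below 0 in this comparison, with a median of -0.32, and 2 of them, the eL30 copies, fell. Among the 12 genes of the exit tunnel and its rim, the median was -0.20 and 1 gene, rpl39, fell. None of the 7 genes of the peptidyl transferase and tRNA sites passed (median -0.14). The same held for the 4 genes of the 5S ribonucleoprotein, which is assembled before it joins the subunit (median -0.17), and for the 4 stalk genes (median -0.20). The assembly factor gene rlp7 had -0.00 ± 0.12 (SE). The other 5 genes that fell were among the 26 of no listed role (median -0.27). Differences between roles were not tested in this comparison either. Roles also differ in transcript length, with 498 to 597 bases for the bridge genes. The genes of the peptidyl transferase and tRNA sites have 428 to 1473 bases.

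**Figure D4:**
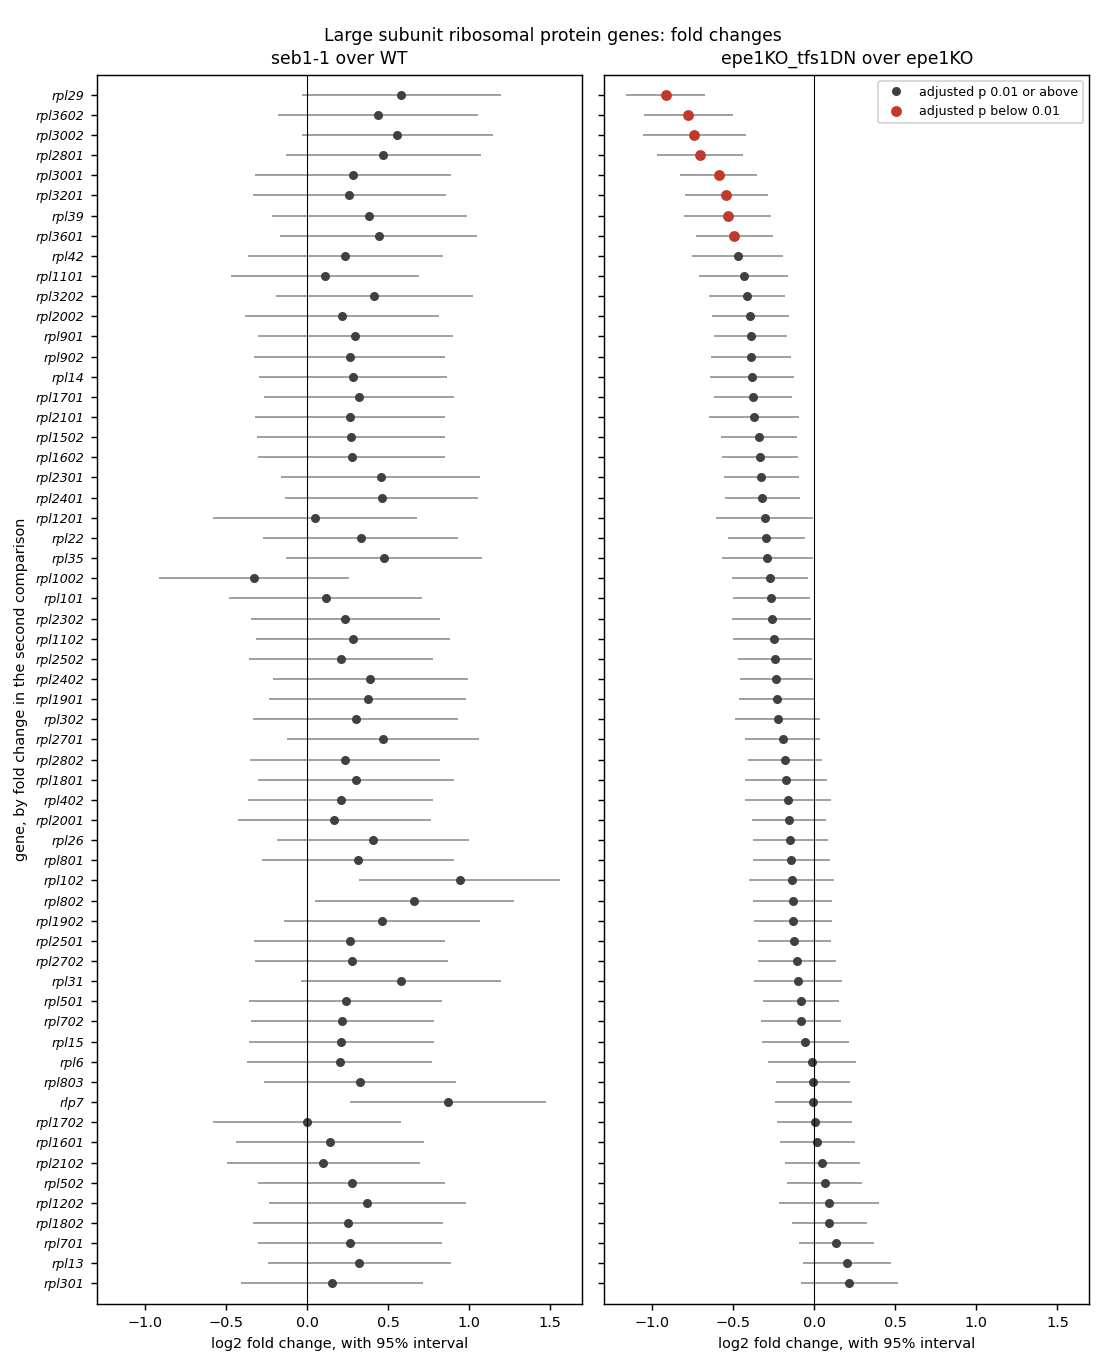
Log2 fold change with its 95% interval (x axis) of each of the 60 genes, for seb1-1 over WT (left) and for the libraries labelled epe1KO_tfs1DN over epe1KO (right), in the order of the right panel. Red points passed the adjusted p of 0.01, which are 8 genes on the right and 0 on the left, and 59 points on the left lie above 0, against 9 on the right.

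The genes that fell had short transcripts. The members' annotated transcripts measured 318 to 1473 bases, with a median of 672.5, against 1681 for all annotated genes. Under 500 bases, 4 of 9 members fell (rpl29, rpl39, rpl3601 and rpl3602), and the median log2 fold change was -0.47. From 500 to under 700 bases, 4 of 26 fell with a median of -0.27. At 700 bases and over, 0 of 25 fell with a median of -0.13. Other genes in these classes fell in 8.06%, 3.60% and 1.75% of cases, with medians of -0.07, -0.05 and 0.01. These other genes are all those outside the 60, with the 55 small subunit genes and the 17 other rpl genes still among them. Of these, 12 and 5 fell. The percentages are therefore no background of short genes free of ribosomal protein genes. Across the 60 members the log2 transcript length and the fold change had a Pearson r of 0.58 and a Spearman rho of 0.56, against -0.05 and -0.09 across 5069 genes. In seb1-1 the members' values were -0.22 and -0.33, against -0.23 and -0.28 across 5058 genes. These are descriptions across genes, which share libraries and are not replicates. Members with an intron were also the shorter ones, with a median of 585 bases against 732.5, and 6 of the 26 fell, against 2 of the 34 without. The same split was not made over all genes, so these counts have no background beside them.

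**Figure D5:**
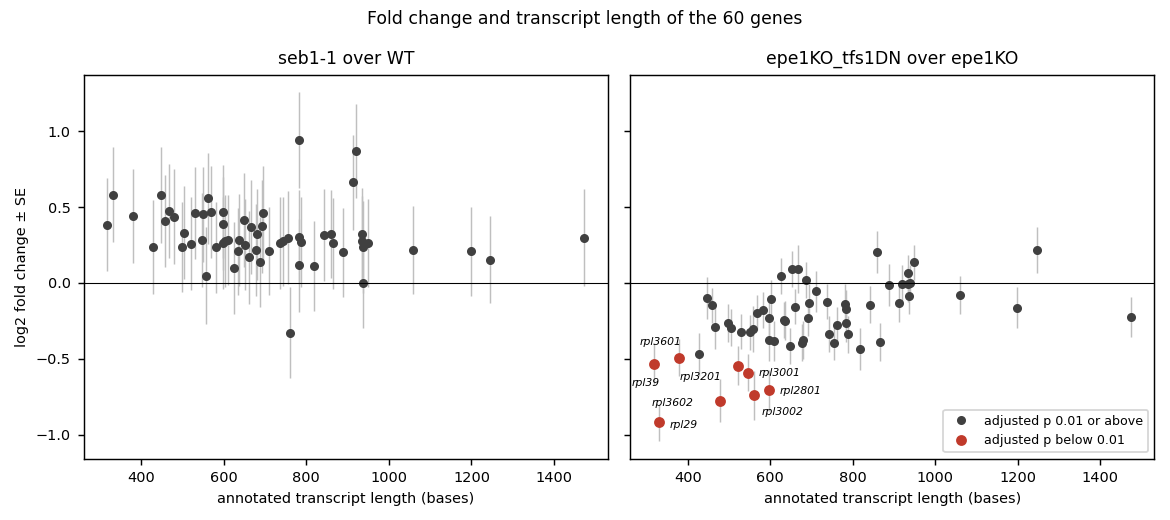
Annotated transcript length (x axis, bases) and log2 fold change with its SE (y axis) of the 60 genes, for seb1-1 over WT (left) and the libraries labelled epe1KO_tfs1DN over epe1KO (right). On the right the 8 genes that passed the adjusted p of 0.01 (red, named) all lie below 700 bases, and the 25 genes of 700 bases and over hold none.

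Copies of the same protein were then compared with each other. The difference of the fold changes of 2 copies was given a 95% interval from their SEs, taken as independent, with no adjustment over the 25 pairs of copies. In seb1-1 the interval contained 0 in all 25 pairs. The largest differences were -0.83 for rpl101 minus rpl102 (interval -1.69 to 0.03), -0.35 for rpl801 minus rpl802 (interval -1.20 to 0.51), 0.34 for rpl802 minus rpl803 (interval -0.52 to 1.19), -0.32 for rpl1201 minus rpl1202 and 0.32 for rpl1701 minus rpl1702. The SE of such a difference was 0.41 to 0.45, which is larger than most of the differences.

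In the libraries labelled epe1KO_tfs1DN the interval excluded 0 in 5 of the 25 pairs. The difference was -0.53 for rpl2801 minus rpl2802 (interval -0.88 to -0.18), with the minor copy lower. It was -0.42 for rpl2101 minus rpl2102 (interval -0.78 to -0.06), which encode eL21, and again the minor copy was lower. For rpl1701 minus rpl1702, the uL22 copies of the exit tunnel, it was -0.38 (interval -0.71 to -0.05), and here the major copy was the lower of the 2. For rpl1601 minus rpl1602 (uL13) it was 0.36 (interval 0.03 to 0.69), and for rpl301 minus rpl302 it was 0.44 (interval 0.05 to 0.84), the last resting on copies with shared stretches. With the SEs multiplied by the spread of 1.48 given above, a choice made after seeing the data, the interval excluded 0 only for rpl2801 minus rpl2802 (-1.04 to -0.012). The eL30 copies differed by 0.15 (interval -0.25 to 0.55) and the eL36 copies by 0.28 (interval -0.08 to 0.65). The promoters printed above for rpl2801 and rpl2802 both hold a HomolD box. In the longer windows that were searched, a HomolE box was found for rpl2802 and not for rpl2801.

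The presence of a promoter element was also set beside the fold change. In the libraries labelled epe1KO_tfs1DN the median was -0.24 for the 55 members with the HomolD core and -0.12 for the 5 without, which include the fallen rpl3601. In seb1-1 the medians were 0.28 and 0.39. For the HomolE box they were -0.27 with and -0.23 without in the libraries labelled epe1KO_tfs1DN, and 0.30 with and 0.27 without in seb1-1.

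The 2 comparisons share no libraries. Of the 60 members, 50 (83.3%) were above 0 in seb1-1 and below 0 in the libraries labelled epe1KO_tfs1DN, against 25.2% of the 5069 genes with both values. A further 9 were above 0 in both, and rpl1002 alone was below 0 in both. These counts follow closely from the separate ones, 59 of 60 above 0 in seb1-1 and 51 of 60 below 0 in the other comparison. They are no further evidence of a joint response. Across members the fold changes of the 2 comparisons had a Pearson r of -0.17 and a Spearman rho of -0.21, against -0.13 and -0.14 across all genes.

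Other genes of the ribosome were read from the same tests. Of the 55 small subunit genes, 12 fell and 0 rose in the libraries labelled epe1KO_tfs1DN, against 2.21% and 2.37% of all genes tested. The small subunit genes had a median log2 fold change of -0.26, led by rps2502 (-0.99) and rps3001 (-0.95). In seb1-1 none passed, and 51 of 55 were above 0 (median 0.29). Of the 17 rpl genes outside the list, 5 fell in the libraries labelled epe1KO_tfs1DN, namely rpl4101 (-1.12), rpl4102 (-0.94), rpl4302 (-0.55), rpl3703 (-0.54) and rpl3802 (-0.53). The rpl41 genes encode the smallest protein of the subunit. Division of the Wald scores by their spread, after which 1 of the 8 fallen members passed, is not given for the small subunit genes or these 17 genes. The 7 genes of the P stalk, which recruits the elongation factors, included none that passed in either comparison. Among 41 genes for the assembly and export of the subunit, which include rlp7, 1 rose in seb1-1, the nucleolar factor gene nop16 (1.30). Of all genes tested in seb1-1, 0.181% rose. Of the 41 genes, 40 were above 0 in seb1-1, with a median of 0.74 for the list. In the libraries labelled epe1KO_tfs1DN none of the 41 passed, and their median was 0.08. None of 11 regulators of ribosomal protein genes and growth and none of 10 RNA polymerase I genes passed in either comparison. In seb1-1, 9 of the 11 regulators were below 0 (median -0.25). In the libraries labelled epe1KO_tfs1DN, 7 of the 11 were above 0 (median 0.07). The regulators include rrn7, whose protein binds the HomolD box and whose values went against most of this list. It had 0.73 in seb1-1 (DESeq2 adjusted p = 0.276). In the libraries labelled epe1KO_tfs1DN it had -0.27 (DESeq2 adjusted p = 0.269).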

How the data were processed

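Poly(A)-selected RNA of 8 libraries (2 per group, cells grown in a rich medium) was sequenced, and the authors aligned reads with TopHat and used DESeq2 per pair of groups. The labels name the build ASM294v2. The sources used here give no versions, counting tool or strand setting. For each gene the deposited mean count is a signal scaled by size factors and averaged over 4 libraries. Beside it the authors deposited the log2 fold change, its SE, a Wald score, a p-value and an adjusted p-value. The analysis starts from these columns of the authors' own comparisons, since no value per library was used, and depth per library is unknown. The fold changes are moderated: genes with a mean under 5 had a smaller median SE (0.24 and 0.09) than genes with 1000 or more (0.30 and 0.13). The first table compares seb1-1 with WT. The second table is named with epe1KO first, and its direction was instead taken from the name of the study's supplementary sheet of the same values.

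Symbols, lengths, introns, overlaps, shared 50-base stretches and promoters were read from the RefSeq annotation of ASM294v3 for 5111 genes, matched by identifier. No coordinate was carried between builds. Intervals are the value ± 1.96 SE. A Benjamini-Hochberg routine was tested on simulated data. Python 3.11.15, pandas 2.3.3, scipy 1.17.1 and Biopython 1.88 were used. The members and lists were chosen with earlier results of these data known. Named genes were the members past the threshold, the 6 highest and 6 lowest fold changes, the 5 highest and 5 lowest levels per kilobase, the families with the most unequal copies or fold changes, and up to 4 genes of each other list with the smallest adjusted p.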

Additional observations from a re-analysis of the deposited data

How the results depend on the processing

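Of the choices tried, 3 changed the count of large subunit genes that fell in the libraries labelled epe1KO_tfs1DN from the 8 reported: 17 fell at an adjusted p below 0.05, 0 at an adjusted p below 0.01 with a change over 2-fold, and 1 (rpl29) with the Wald scores divided by their spread over all genes. Among all genes, 233 fell at an adjusted p below 0.05. In either direction, 26 passed at 0.01 with a change over 2-fold, and 45 passed with the scores divided by their spread. Adjustment over every gene with a p, centring on the median of all genes and leaving out copies that share most 50-base stretches kept the count at 8. In seb1-1 the counts that rose and fell were 0 under all 6 choices. The median log2 fold change of the members was 0.28 to 0.31 in seb1-1 and -0.24 to -0.19 in the libraries labelled epe1KO_tfs1DN under the choices of centring, leaving out shared copies and counting each family once, and the mean weighted by mean count was 0.29 and -0.20. With SEs multiplied by the spread of the Wald scores, chosen after seeing the data, the pairs of copies whose interval excluded 0 numbered 1 in place of 5 in the libraries labelled epe1KO_tfs1DN, and 0 in seb1-1 either way. Dividing by transcript length moved 14 of 94 copy shares by more than 5 percentage points, by at most 7.64. No paired analysis was possible because the tables used here carry no values per library, and for the same reason the fit with a replicate block and the leaving out of each library were not run. The unknown depth per library, and 2 libraries per group, limit what a single gene can show.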
